A study of Homo sapiens with 9 samples.

Results

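Zinc finger genes on chromosome 19 were taken as every protein-coding gene whose symbol is ZNF followed by a number and whose annotated position is on chromosome 19 of the human genome build GRCh37. The rule found 238 genes among the 63677 gene identifiers counted, 83 of them on the short arm (19p) and 155 on the long arm (19q). The rule itself used no expression value, but it was chosen with earlier results of these data known. The RNA came from SW480, a human colon adenocarcinoma cell line, and from 2 lines made from it to express BASP1, a signaling protein and transcriptional corepressor that SW480 cells keep nearly silent, and the design asks which transcripts differ when BASP1 is expressed. Each line gave 3 libraries of stranded, poly(A)-selected RNA.

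SW480 was the parental line, not transfected and not a vector control. SW480-B carried BASP1 on a pcDNA3 plasmid under the CMV promoter, was selected with G418 and was grown from 1 cell, so that it is 1 clone. SW480-gRNA-B-all, called the gRNA line below, was made in steps by lentiviral transfer. The cells first received MS2-P65-HSF1, then dCas9-VP64 with cloning from 1 cell, and then a pool of guide RNAs against the BASP1 promoter, so that the resident gene was activated. Both derived lines descend from SW480, and none of the 9 libraries comes from a line that went through the same selection and cloning without BASP1. BASP1 expression, resistance selection and cloning cannot be told apart in either comparison with SW480. The gRNA line and SW480-B had similar BASP1 levels (log2 fold change -0.03 ± 0.24, SE) but differ in how BASP1 was expressed, in selection and in cloning. These cannot be told apart in the comparison between them. The sources used here do not say whether the 3 libraries of a line came from separate cultures, so the p-values measure the spread between libraries, which may be technical.

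Each library held 25238831 to 29355669 counts in genes. BASP1 stood at 6.87 ± 5.68 CPM (counts scaled to a common total in each library; SD, n = 3) in SW480, at 262 ± 10.2 CPM in SW480-B and at 257 ± 78.0 CPM in the gRNA line, and the highest SW480 library was at 11.9 CPM. Of 9 colon epithelial markers 8 had at least 1 CPM on average over the libraries, all but GPA33. Their summed level, carried by keratins, was 8330 to 11000 CPM in SW480, 6990 to 11400 CPM in SW480-B and 6330 to 7810 CPM in the gRNA line, but single markers differed more. CDX2, a transcription factor of intestinal identity, averaged 34.3 ± 6.55 CPM (SD, n = 3) in the parental line, with 61.4 ± 5.18 CPM for SW480-B and 3.53 ± 1.73 CPM for the gRNA line. VIL1, which encodes the brush border protein villin, averaged 250 ± 132, 31.9 ± 3.47 and 11.5 ± 8.6 CPM in the same order. CDH17, an intestinal cadherin, was at 18.3, 6.17 and 1.64 CPM in SW480 and at 0 in all libraries of both derived lines. In edgeR against SW480, all 3 of these markers fell in the gRNA line, and VIL1 and CDH17 also in SW480-B. Of 9 matched markers of fibroblasts, leukocytes and endothelium 3 had a mean of at least 1 CPM, and their summed level was 5.10 to 7.67 CPM in SW480, 5.94 to 13.4 CPM in SW480-B and 14.2 to 15.3 CPM in the gRNA line, where PTPRC and CD3E were at 0. Of these, COL1A1, a collagen gene of fibroblasts, rose in the gRNA line from a mean of 4.03 to 9.34 CPM against SW480 (log2 fold change 1.21, adjusted p = 0.036 in edgeR), while VWF and CD14 had 1.69 and 1.41 and did not pass. The part of all these markers in the results was not tested. The gRNA line's replicates 2 and 3 differed from each other far less than any other pair of replicates (chi-square per degree of freedom over all genes 3.02, against 77.2 to 290 for the other pairs), yet by more than counting noise. They were kept as separate libraries, and the counts of called members, the medians over members and the calls of named genes are also given with these libraries summed.

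Proteins of this family bind DNA through runs of C2H2 fingers, each a short loop held by a zinc ion that reads a few bases. Most carry a KRAB box near the amino terminus, which binds the corepressor TRIM28 (also called KAP1). TRIM28 in turn brings the histone methyltransferase SETDB1, and the bound chromatin gains methylation of histone H3 at lysine 9. Many members recognise transposable elements and keep them silent, and the family grew by tandem duplication, which left its genes in clusters of similar sequence along chromosome 19. Because of this similarity, reads can fit several members, and counts can be split or lost between near copies. Of the 32 members named by rule, 9 also overlap a gene on their own strand and 16 a gene on the opposite strand. These overlaps are of whole gene spans, introns included, and shared exon bases were not examined. Since the strand setting of the counting is also not known, counts of such pairs may be mixed.

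Translated coding sequences on GRCh37 could be read for 237 of the 238 genes. A match to a KRAB A-box pattern was found in 188 of them and not in 49. The search used a single pattern and a single transcript per gene, so a gene without a match may still carry a KRAB box. The number of C2H2 fingers had a median of 12 and ran from 1 in ZNF428 to 36 in ZNF208, in proteins with a median of 576 residues. Grouping members whose neighbouring starts lay within 500 kb gave 21 groups, 8 of which held at least 10 genes. On 19p these ran from ZNF414 to ZNF846 (13 genes, chr19:8574562-9903856), from ZNF653 to ZNF791 (25 genes, chr19:11594242-12750912) and from ZNF101 to ZNF254 (37 genes, chr19:19779605-24312770), the last of which ends beside the centromere. On 19q they ran from ZNF565 to ZNF573 (24 genes, chr19:36673178-38307940), from ZNF575 to ZNF180 (22 genes, chr19:44029649-45004576), from ZNF175 to ZNF331 (39 genes, chr19:52074536-54083523), from ZNF628 to ZNF835 (16 genes, chr19:55987984-57183151) and from ZNF264 to ZNF446 (40 genes, chr19:57702868-58992597).

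Most members were transcribed at low levels in all 3 lines. Of the 238 genes, 218 had at least 1 count in some library, 180 had a mean of at least 1 CPM and 87 a mean of at least 10 CPM. The median member had a level of 1.38 CPM/kb (CPM divided by the exon length in kilobases), with 0.787 for the 83 genes of 19p and 1.64 for the 155 genes of 19q. The other protein-coding genes of 19p had a median level of 2.55 and those of 19q of 0.718 on this scale, and the 233 numbered ZNF genes of other chromosomes one of 2.5. Among the large groups the one from ZNF101 to ZNF254 had the lowest median level, 0.458 CPM/kb, and that from ZNF628 to ZNF835 the highest, 3.25. Members with a KRAB A-box match had a median level of 1.20 and members without a match one of 2.74, with no test of that difference.

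**Figure D1:**
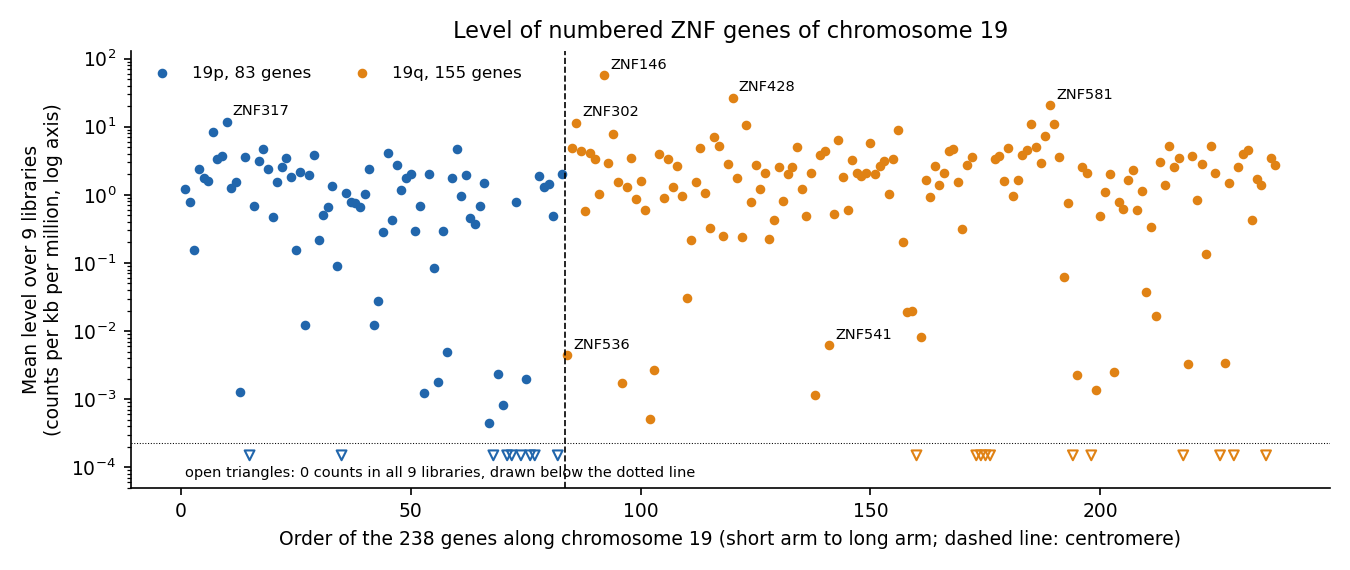
Mean level of each of the 238 genes over the 9 libraries, in CPM per kilobase of exon on a log axis, against the order of the genes from the short to the long arm. Blue points are 19p and orange points 19q, and open triangles are genes at 0 counts in all 9 libraries. ZNF146 stands highest at 57.2, and 7 of the 9 silent genes of 19p lie in the group from ZNF101 to ZNF254.

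In all 9 libraries 20 members had 0 counts, which allows up to 3 counts, or 0.1 to 0.116 CPM, in each library. On 19p they were ZNF560, ZNF625, ZNF208, ZNF729, ZNF98, ZNF99, ZNF728, ZNF730 and ZNF726, and all but ZNF560 and ZNF625 lie in the group that ends beside the centromere. On 19q they were ZNF534, ZNF415, ZNF347, ZNF665, ZNF677, ZNF667, ZNF835, ZNF154, ZNF418, ZNF135 and ZNF132. ZNF132 and ZNF667 are known from other carcinomas as genes silenced by promoter methylation, as are ZNF471 and ZNF382, which had 4 and 5 counts in total over the 9 libraries. ZNF304 had 3 counts in total. ZNF536, a repressor of neuronal differentiation, had 12, and ZNF541, a germ cell gene, had 8. A mean of at least 1 CPM was reached by 180 members in SW480, 179 in SW480-B and 180 in the gRNA line, and by 176 in all 3 lines. Between SW480 and the gRNA line, ZNF114, ZNF404, ZNF556 and ZNF878 came above this level and ZNF223, ZNF497, ZNF540 and ZNF575 went below it. The means ran from 0.251 to 2.62 CPM in ZNF556 and from 3.11 to 0.807 CPM in ZNF497.

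ZNF146 on 19q (chr19:36705504-36729673, plus strand), whose protein consists of fingers with no KRAB box, had the highest level of all members, 57.2 CPM/kb. Its level in SW480 was 375, 341 and 231 CPM, in SW480-B 225, 249 and 234 CPM, and in the gRNA line 213, 131 and 133 CPM. All gRNA-line libraries lay below all SW480 libraries, and the difference had a log2 fold change of -1.0 ± 0.28 (SE) and an adjusted p of 0.072 in edgeR's quasi-likelihood test. ZNF428, ZNF581, ZNF317 and ZNF302 followed with 26.6, 20.9, 11.9 and 11.5 CPM/kb. ZNF581 overlaps the coding genes CCDC106 and ZNF580 on its own strand, so its counts may hold theirs. None of these 5 genes passed the edgeR test without a block on all libraries of each pair, and only ZNF317 lies on 19p. In the gRNA line against SW480, ZNF581 was called lower in DESeq2, with the replicate number as a block (with and without GC and length offsets) and without SW480 replicate 3, and ZNF146 with that block and without SW480 replicate 3.

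In the gRNA line against SW480, the long-arm members had a lower median level while few passed the test one by one. Of the 192 members that passed the filter on low counts, 2 fell by more than 2-fold at an adjusted p under 0.05 (ZNF296 and ZNF616), and 1 rose (ZNF582). These 3 genes are 1.56% of the members tested, while 6.55% of all 16100 genes tested were called, 304 higher (1.89%) and 751 lower (4.66%). ZNF507 also passed the adjusted p and fell by slightly less than 2-fold, so that 3 members fell at any size, beside 5.52% of all genes. At an unadjusted p under 0.05, 5 members were higher and 57 lower, against 11.5% and 16.9% of all genes. The calls depended on single libraries. Without SW480 replicate 3, 23 members were called lower and 4 higher, whereas without SW480 replicate 1, 0 were lower and 1 higher, and without SW480 replicate 2 or any 1 of the gRNA-line libraries none was called in edgeR. The calls over all genes, 1055 with all libraries, were 2659 without SW480 replicate 3, 1059 without replicate 1, 8 without replicate 2 and 76 to 178 without a gRNA-line library. Summing the near-alike replicates left no member called either (97 of all genes). DESeq2 on all 6 libraries called 14 of 214 members lower and 4 higher, beside 5.1% and 2.88% of all 29822 genes. The higher ones were ZNF331, ZNF404, ZNF556 and ZNF582. DESeq2 shares, here and below, are over every gene with at least 1 count, a wider base than the genes that passed the edgeR filter.

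The median log2 fold change of the 192 tested members was -0.47, with quartiles of -0.82 and -0.01, beside -0.05 for all genes tested. The 129 members of 19q had a median of -0.60 and 110 of them lay below 0. The 63 members of 19p had a median of -0.12 and 35 lay below 0. Other protein-coding genes of the same arms differed in the same order, with a median of -0.40 for 405 genes of 19q and 0.11 for 389 genes of 19p, and the 207 tested numbered ZNF genes of other chromosomes had a median of -0.22. In another fit 19p and 19q alone were given offsets, each from the arm's other protein-coding genes relative to all genes. With these arm offsets the 19q members had a median of -0.25 and the 19p members of -0.29. Without SW480 replicate 1 the 19q median was -0.37 and that of all members -0.28, and with the near-alike replicates summed they were -0.50 and -0.37. The 19p median was then -0.11. The intestinal markers CDX2, VIL1 and CDH17 fell between the same lines, as given above, and their part in these medians was not tested. A copy number difference of 19q between the lines and lower transcription per copy cannot be told apart in these data, nor can fewer cells that transcribe a gene and less RNA per cell.

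In 62 members (32.3%) all 3 gRNA-line libraries lay below all 3 SW480 libraries, beside 20.0% of all genes tested, with replicates 2 and 3 of the gRNA line taken as separate libraries. Of the 19q members 41.1% did so, beside 33.3% of the other 19q genes, and of the 19p members 14.3%. The reverse order was seen in 17 members (8.85%), beside 18.0% of all genes. The median log2 fold change of 19q members was -0.58 for 97 genes with a KRAB A-box match and -0.66 for 31 without. That difference was not tested. All 5 large groups of 19q had medians below 0, from -0.33 between ZNF575 and ZNF180 to -0.84 between ZNF565 and ZNF573. On 19p the medians were -0.46, 0.19 and -0.19 from the telomere to the centromere.

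**Figure D2:**
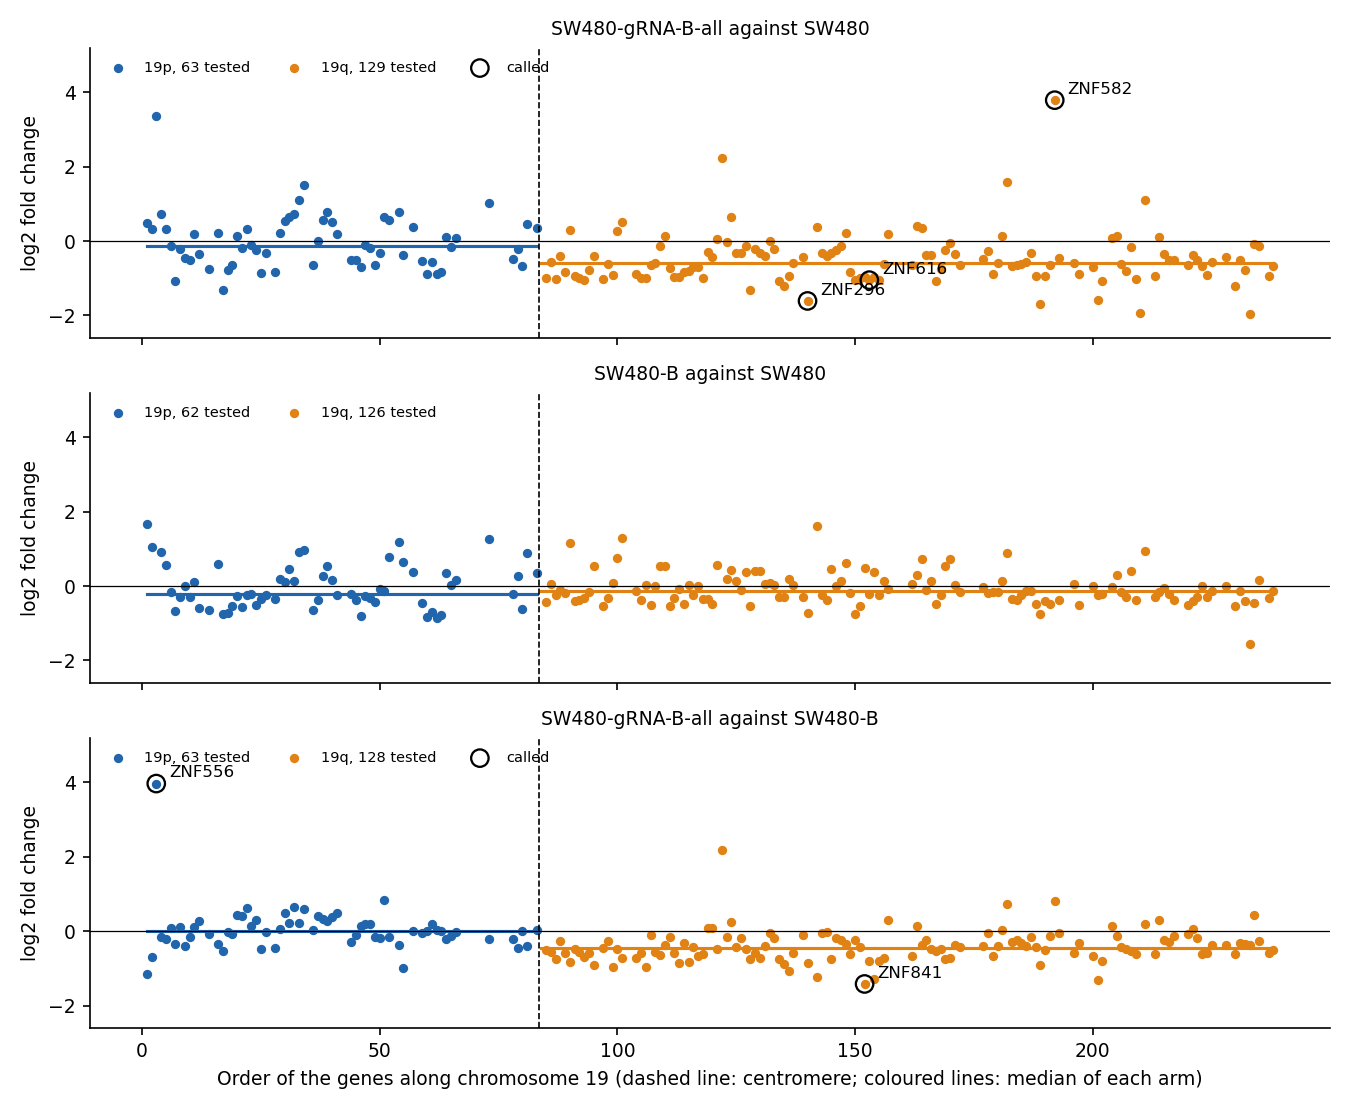
Log2 fold change of each tested member against its order along chromosome 19 in the 3 comparisons, with 19p in blue and 19q in orange. Coloured lines mark the median of each arm and black circles the called genes. In the gRNA line the 19q median lies at -0.60 against SW480 and at -0.45 against SW480-B, while in SW480-B against SW480 the arms lie at -0.20 and -0.14.

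The libraries of a line were not alike in this respect. Each member was set against its own mean over the 9 libraries on the scale log2(CPM + 0.5), and the median over the 19q members was then taken in each library. This median was 0.52, 0.18 and 0.00 in SW480, 0.22, 0.06 and 0.03 in SW480-B, and 0.03, -0.48 and -0.44 in the gRNA line. Replicate 1 of the gRNA line therefore lay above replicate 3 of SW480, and the low values came from the near-alike replicates 2 and 3. For 19p members the 9 medians ran from -0.07 to 0.27. The other genes of 19q gave 0.32, 0.13 and 0.10 in SW480, -0.02, -0.02 and 0.01 in SW480-B, and 0.04, -0.25 and -0.23 in the gRNA line.

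The summed level of all 238 members was 3920, 3130 and 2570 CPM in SW480, 2850, 2760 and 2620 CPM in SW480-B and 2630, 1900 and 1930 CPM in the gRNA line. The highest sum was that of SW480 replicate 1, and the lowest sums were those of replicates 2 and 3 of the gRNA line. The share of intronic bases was 5.57%, 4.60% and 3.61% in the SW480 libraries, 7.27%, 3.94% and 3.50% in SW480-B and 3.89%, 3.65% and 3.91% in the gRNA line. Its part in these levels was not tested.

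**Figure D3:**
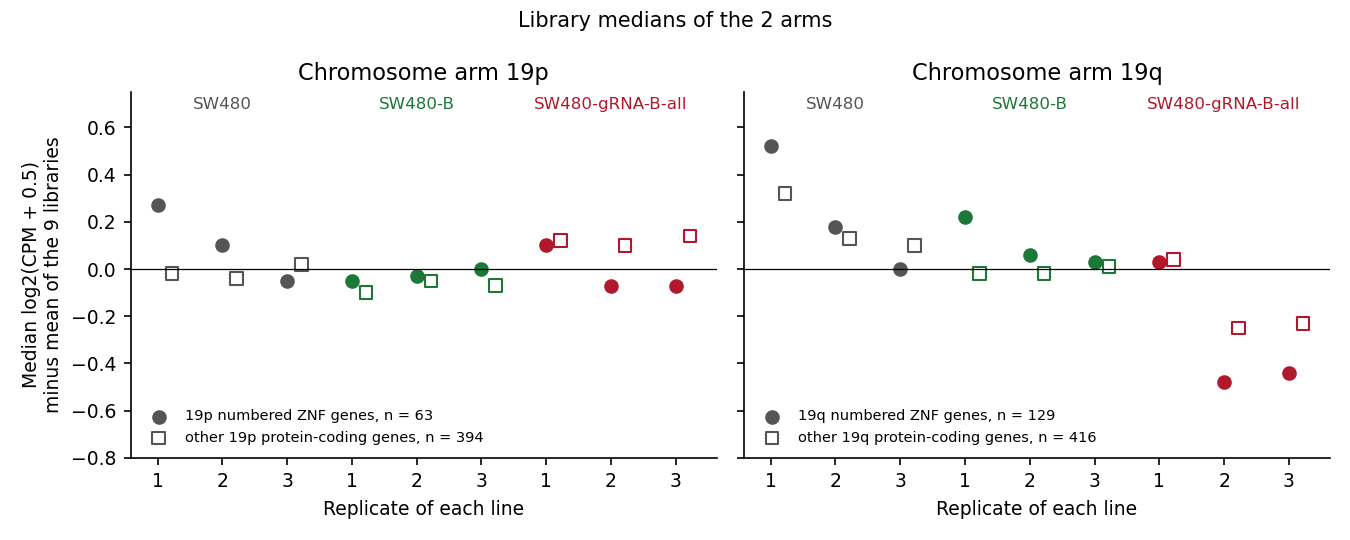
Median difference of each library from the mean of the 9 libraries, on the scale log2(CPM + 0.5), for numbered ZNF genes (filled circles) and other protein-coding genes (open squares) of 19p (left) and 19q (right). On 19q the ZNF medians run from 0.52 in SW480 replicate 1 to -0.48 in gRNA-line replicate 2, and replicate 1 of that line lies at 0.03.

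ZNF296 (ENSG00000170684, chr19:45574758-45579736, minus strand), known for its part in pluripotent stem cells, has 6 fingers and no KRAB box. Its level was 11.2, 14.9 and 7.75 CPM in SW480, 6.30, 7.77 and 6.08 CPM in SW480-B and 4.54, 2.74 and 3.87 CPM in the gRNA line. The gRNA-line libraries lay below all others, and SW480-B overlapped SW480 by 1 library. Against SW480 the log2 fold change was -1.61 ± 0.34 (SE; adjusted p = 0.038 in edgeR) in the gRNA line and -0.72 ± 0.34 (adjusted p = 0.35) in SW480-B. Of the 6 fits that left out 1 library, only the fit without SW480 replicate 3 kept the call in the gRNA line, and the log2 fold change ran from -1.80 to -1.27 over all alternatives. The call was also lost with the replicate number as a block, with and without GC and length offsets, with arm offsets and with the near-alike replicates summed.

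ZNF507 (ENSG00000168813, chr19:32836500-32878573, plus strand), another member without a KRAB box, was at 80.3, 82.6 and 57.1 CPM in SW480, at 51.4, 53.6 and 54.1 CPM in SW480-B and at 43.5, 34.5 and 34.3 CPM in the gRNA line. The 3 lines did not overlap. The log2 fold change against SW480 was -0.98 ± 0.20 (SE; adjusted p = 0.036 in edgeR) in the gRNA line and -0.43 (adjusted p = 0.38) in SW480-B. Among the fits with a library left out, it passed the adjusted p only without SW480 replicate 3, and it did not pass with the near-alike replicates summed.

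ZNF616 (ENSG00000204611, chr19:52616344-52643191, minus strand) and ZNF841 (ENSG00000197608, chr19:52567718-52599018, minus strand) are neighbours in the group from ZNF175 to ZNF331, each with a KRAB A-box, the first with 21 fingers and the second with 20. They are shown because they are the KRAB genes that were called lower, one in each comparison of the gRNA line. The 250 bases upstream of both starts, from RefSeq's table for GRCh38.p14 and placed by a single exact match on GRCh37, lie at chr19:52643192-52643441 and chr19:52599019-52599268 and are printed 5′ to 3′ on the minus strand, in lower case because none of the motifs searched below occurs in them.
ZNF616: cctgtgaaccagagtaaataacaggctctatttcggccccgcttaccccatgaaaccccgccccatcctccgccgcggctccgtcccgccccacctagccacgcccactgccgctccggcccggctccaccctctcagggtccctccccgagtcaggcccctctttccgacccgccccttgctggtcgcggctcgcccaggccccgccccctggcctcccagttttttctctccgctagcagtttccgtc
ZNF841: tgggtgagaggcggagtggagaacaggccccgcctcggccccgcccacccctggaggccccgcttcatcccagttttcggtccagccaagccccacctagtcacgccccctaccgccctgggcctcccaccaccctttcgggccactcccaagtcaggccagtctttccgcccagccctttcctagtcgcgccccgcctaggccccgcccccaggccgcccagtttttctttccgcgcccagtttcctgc
In a global alignment 193 of 262 columns were identical, or 73.7%, while the other 14 pairs among the 6 called or named promoters compared had 48.4% to 56.0%. The stretches hold 21 and 17 CpG dinucleotides.

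ZNF616 was at 22.3, 22.3 and 14.6 CPM in SW480, at 17.7, 17.7 and 15.1 CPM in SW480-B and at 9.18, 10.4 and 9.15 CPM in the gRNA line. The gRNA line lay below every other library, and the parental and SW480-B libraries overlapped. Its log2 fold change was -1.05 ± 0.24 (SE; adjusted p = 0.043 in edgeR) against SW480 and -0.81 ± 0.19 (adjusted p = 0.035) against SW480-B. The call against SW480 held in 1 of the 6 fits with a library left out, that without SW480 replicate 3, and the adjusted p against SW480-B stayed under 0.05 only without SW480-B replicate 3. The call against SW480 was also lost with GC and length offsets, with the replicate number as a block, with both, with arm offsets and with the near-alike replicates summed. ZNF841 was at 13.5, 11.3 and 10.1 CPM in SW480, at 19, 17 and 12.2 CPM in SW480-B and at 7.52, 5.74 and 4.74 CPM in the gRNA line, again with the gRNA line below all others. Its log2 fold change was -1.42 ± 0.27 (SE; adjusted p = 0.016) against SW480-B and -0.96 ± 0.27 (adjusted p = 0.072) against SW480. The call against SW480-B held without SW480-B replicate 3 or gRNA-line replicate 1 and was lost without any 1 of the other 4 libraries. ZNF841 overlaps ZNF432 on the same strand, and reads shared by these genes cannot be told apart.

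With few counts in the parental line, 2 members were called higher in the gRNA line, ZNF582 on 19q against SW480 and ZNF556 on 19p against SW480-B. ZNF582 (ENSG00000018869, chr19:56887215-56904907, minus strand) is known as a gene methylated in carcinomas, and ZNF556 (ENSG00000172000, chr19:2867333-2883443, plus strand) carries a KRAB A-box. Their upstream 250 bases, at chr19:56904904-56905153 on the minus strand and chr19:2867083-2867332 on the plus strand of GRCh37, again from RefSeq, are given 5′ to 3′ because the stretches differ in CpG content, with 23 and 4 CpG dinucleotides. Capitals mark CCGGAA, the core bound by ETS factors, or its reverse complement TTCCGG.
ZNF582: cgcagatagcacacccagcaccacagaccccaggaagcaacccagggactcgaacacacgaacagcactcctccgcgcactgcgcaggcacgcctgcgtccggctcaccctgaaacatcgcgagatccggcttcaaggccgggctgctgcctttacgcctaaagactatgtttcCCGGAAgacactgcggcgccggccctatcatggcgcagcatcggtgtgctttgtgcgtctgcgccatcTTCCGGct
ZNF556: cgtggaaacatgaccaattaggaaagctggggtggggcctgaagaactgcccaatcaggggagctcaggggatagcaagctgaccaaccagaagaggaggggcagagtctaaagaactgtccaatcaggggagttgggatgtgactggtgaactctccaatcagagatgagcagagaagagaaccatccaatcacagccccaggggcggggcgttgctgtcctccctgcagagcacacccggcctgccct
The letters CCGGAA occur at 2 places upstream of ZNF582 and at none upstream of ZNF556.

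ZNF582 had 1, 0 and 1 counts in SW480, 0, 10 and 8 in SW480-B, and 11, 11 and 12 in the gRNA line. All counts were low, and the gene passed the filter of this comparison only through the gRNA line, where it is high, so its call is not independent of the filter. It did not pass a filter at 1 CPM in 3 libraries, and SW480-B ranged from the parental to near the gRNA-line value. The counts in the gRNA line exceeded those in SW480 by a depth-corrected ratio of 17.2 (95% interval 4.40 to 148, counting error only; adjusted p = 0.024 in edgeR), while the counts in SW480-B exceeded those in SW480 by a ratio of 9.42 (interval 2.26 to 83.7). The call was kept without SW480 replicate 1 or SW480 replicate 3 and lost without any 1 of the other 4 libraries. ZNF556 had 6, 0 and 15 counts in SW480, 13, 0 and 0 in SW480-B, and 76, 80 and 78 in the gRNA line, which corresponds to 2.57, 2.67 and 2.6 CPM in the last line. It too passed the filter through the gRNA line alone. The gRNA line stood apart from both other lines, with a log2 fold change of 3.97 ± 1.01 (SE; adjusted p = 0.047 in edgeR) against SW480-B and of 3.37 ± 0.90 (adjusted p = 0.065) against SW480. Over the alternatives these values ran from 3.38 to 9.26 and from 2.82 to 4.63. In SW480-B only replicate 1 held counts, and without it that line is at 0, where the size of the fold cannot be fixed. The call against SW480-B held only without SW480-B replicate 1 among the 6 fits with a library left out. It was also lost in DESeq2, with no filter, in the fit of all 9 libraries, with arm offsets and with the near-alike replicates summed.

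Upstream stretches from RefSeq were matched for 208 of the 238 members. Over the 250 bases before the start, CCGGAA on either strand was present in 39.9% of the members, 41.1% on 19p and 39.3% on 19q, beside 14.8% of all 27305 promoters. The E-box CACGTG, which reads the same on both strands and is bound by MYC with MAX, was present in 3.37% of members and 6.49% of all promoters. CTTTGA, a core of TCF/LEF sites, on either strand was present in 12.5% and 11.4%. None of these strings contains another, although CCGGAA and its reverse complement can overlap each other. The median member had 16 CpG dinucleotides in this stretch, 12 on 19p and 18 on 19q, beside 11 over all promoters. The presence of these letters is a description of the sequence, and binding was not measured.

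No member passed the test in SW480-B against SW480. Of 188 members tested 0 were called in edgeR, where 1.34% of all 16106 genes were called, 15 higher (0.0931%) and 201 lower (1.25%). At an unadjusted p under 0.05, 7 members were higher and 2 lower, beside 8.07% and 7.76% of all genes tested. DESeq2 called 3 members higher and 0 lower, beside 1.22% and 2.43% of all genes: ZNF554 with a log2 fold change of 1.67, ZNF345 with 1.28 and ZNF486 with 1.19. ZNF554 was at 2.86, 4.41 and 3.75 CPM in SW480 and at 21.5, 8.80 and 4.28 CPM in SW480-B, where the lines overlapped and replicate 1 of SW480-B was highest. ZNF345 was at 3.0, 3.55 and 3.46 CPM in SW480 and at 12.2, 6.77 and 4.95 CPM in SW480-B, and ZNF486 at 3.79, 6.1 and 5.57 CPM and at 11.3, 12.9 and 10.5 CPM, with no overlap in either gene. Groups did not overlap in 20 members higher and 19 lower (10.6% and 10.1%), beside 10.6% and 11.8% of all genes. The median log2 fold change was -0.15 for all members, -0.20 for 19p and -0.14 for 19q, with -0.08 and -0.23 for the other genes of these arms. Without SW480 replicate 1 the median of all members was 0.02.

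The gRNA line was also set against SW480-B, a comparison that shares its libraries with each of those above and is given for its own values. Of 191 members tested, 1 rose (ZNF556) and 1 fell (ZNF841), or 1.05%, where 6.68% of all 15846 genes tested were called, 366 higher (2.31%) and 693 lower (4.37%). DESeq2 called ZNF404 higher, not ZNF556, and 3 lower (ZNF841, ZNF460 and ZNF836), beside 1.93% and 3.54% of all genes. At an adjusted p under 0.05 with no limit on the fold, 5 fell, beside 5.73% of all genes. These were ZNF841 and, by less than 2-fold, ZNF616, ZNF875, ZNF607 and ZNF480. At an unadjusted p under 0.05, 39 members were lower and 5 higher, beside 13.8% and 10.6% of all genes tested. The median log2 fold change was -0.45 for 128 members of 19q, of which 114 lay below 0, and 0.01 for 63 members of 19p. The other genes had medians of -0.13 on 19q and 0.18 on 19p, and ZNF genes elsewhere of -0.13. Of the 19q members 31.2% lay below SW480-B with no overlap, beside 13.6% of the other 19q genes and 15.4% of all genes. In the group from ZNF565 to ZNF573 all 21 tested members had negative values, with a median of -0.58. Calls ranged from 0 to 6 lower and from 0 to 2 higher with a library left out. Without gRNA-line replicate 1 there were 6 lower and 0 higher, without SW480-B replicate 3 there were 5 lower and 0 higher, without SW480-B replicate 1 there were 0 lower and 2 higher, and without SW480-B replicate 2 or gRNA-line replicate 2 or 3 none was called. Over all genes the calls, 1059 with all libraries, were 1320 without gRNA-line replicate 1, 1548 without SW480-B replicate 3 and 420 to 680 in the other 4 fits. Without gRNA-line replicate 2 the median of all members, -0.33, became -0.20. With the near-alike replicates summed it was -0.21, that of 19q was -0.32, and no member was called.

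ZNF875, a KRAB gene formerly named HKR1 (chr19:37803739-37860267, plus strand), was at 44.3, 26.7 and 16.1 CPM in SW480, at 31.2, 32.8 and 22.8 CPM in SW480-B and at 18.0, 12.9 and 13.4 CPM in the gRNA line. Its gRNA-line libraries lay below those of SW480-B but overlapped those of SW480, and the log2 fold change was -0.97 ± 0.22 (SE; adjusted p = 0.031 in edgeR) against SW480-B and -0.98 (adjusted p = 0.14) against SW480. ZNF607 (chr19:38187272-38210662, minus strand) was at 33.7, 28.2 and 21.4 CPM in SW480, at 26.2, 29.1 and 21.9 CPM in SW480-B and at 16.9, 14.7 and 11 CPM in the gRNA line. It fell against SW480-B by 0.86 ± 0.22 (SE, log2 scale; adjusted p = 0.046), with -0.97 (adjusted p = 0.063) against SW480. ZNF480 (chr19:52800422-52829175, plus strand) was at 50.4, 48.4 and 42.6 CPM in SW480, at 57.1, 46.9 and 47.9 CPM in SW480-B and at 33.4, 30.7 and 28.0 CPM in the gRNA line. It fell against SW480-B by 0.72 ± 0.17 (SE, log2 scale; adjusted p = 0.032). In ZNF607 and ZNF480 both other lines lay wholly above the gRNA line and overlapped each other. Each of ZNF875, ZNF607 and ZNF480 still passed the adjusted p without SW480-B replicate 3 or gRNA-line replicate 1 and did not without any 1 of the other 4 libraries, nor with the near-alike replicates summed.

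**Figure D4:**
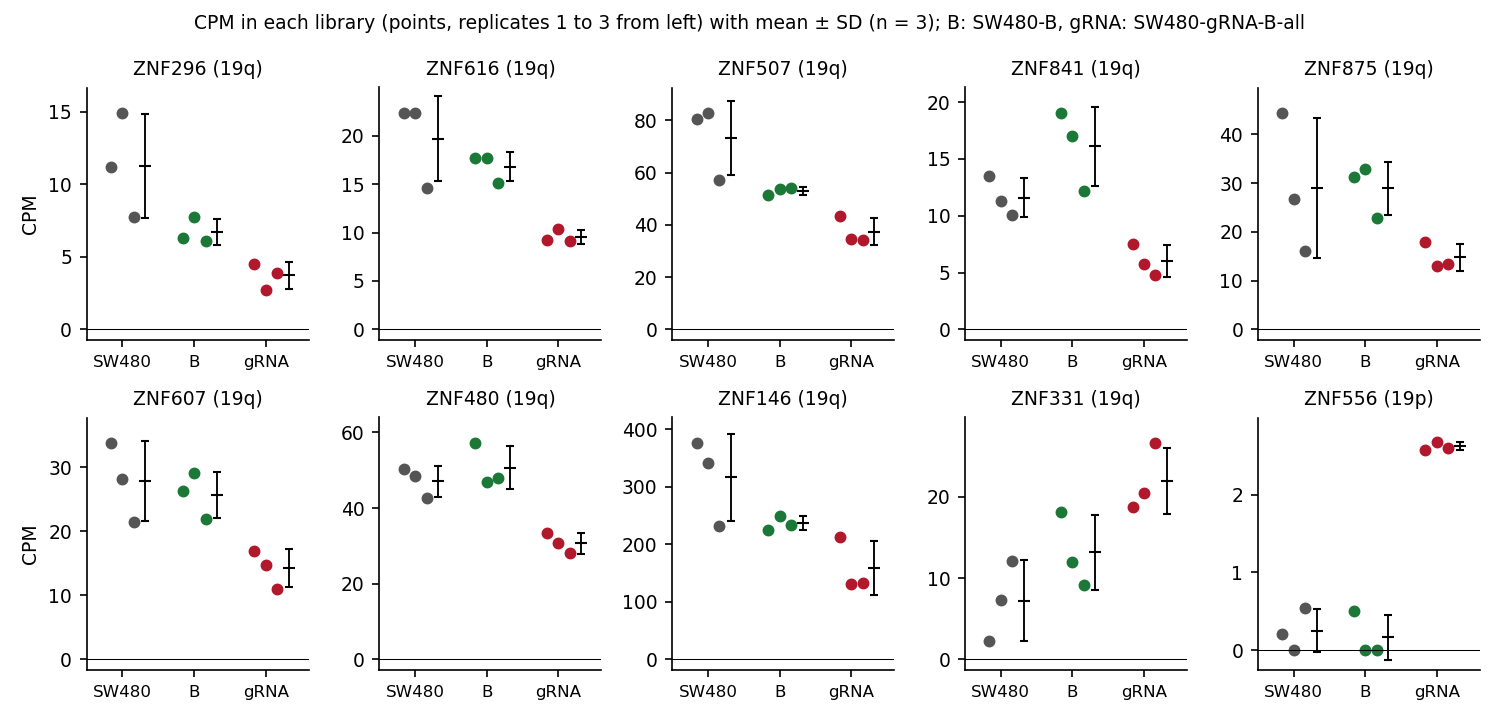
Level in CPM of 10 members in each library (points) with the mean and SD of 3 libraries (black bars), for SW480 (grey), SW480-B (B, green) and the gRNA line (gRNA, red), each panel on its own linear scale that includes 0. ZNF296, ZNF616, ZNF507 and ZNF841 are lowest in all 3 gRNA-line libraries, while ZNF331 and ZNF556 are highest there.

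Members with a known role were described whatever their values. ZNF91 and ZNF93, which repress SVA and L1 retrotransposons, lie on 19p. ZNF91 was at 14.5, 14.7 and 11.2 CPM in SW480, at 17.4, 15.5 and 14.4 CPM in SW480-B and at 14.5, 10.4 and 9.95 CPM in the gRNA line, which overlapped SW480 (log2 fold change -0.22, adjusted p = 0.58 in edgeR). ZNF93 was, in CPM, at 0.792, 1.76 and 1.78 in SW480, at 0.773, 1.57 and 1.48 in SW480-B and at 2.30, 2.17 and 2.37 in the gRNA line. Its gRNA-line libraries lay above the rest, but the difference from SW480 (log2 fold change 0.65, adjusted p = 0.32) did not pass. ZNF274, which binds the ends of zinc finger genes and brings SETDB1 to them, was at 53.3, 28.5 and 30.9 CPM in SW480, at 36.4, 34.0 and 30.6 CPM in SW480-B and at 39.1, 19.3 and 21.9 CPM in the gRNA line. Its lines overlapped (log2 fold change -0.50, adjusted p = 0.39).

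ZNF224, a KRAB protein known as a partner of WT1, the factor through which BASP1 was first described as a corepressor, differed from SW480 by a log2 fold change of -0.33 (adjusted p = 0.52 in edgeR) in the gRNA line and of 0.42 in SW480-B, and neither passed the test. Replicate 1 of SW480-B was highest, at 38.0 CPM beside 18.9 and 13.0 CPM. Over the alternatives the values ran from -0.56 to 0.02 in the gRNA line and from -0.12 to 0.71 in SW480-B. Neither kept its direction. ZNF420, a regulator of p53 also named Apak, had -0.89 (adjusted p = 0.11) and -0.13. ZNF331, a gene often methylated in gastrointestinal tumors, was at 2.24, 7.37 and 12.1 CPM in SW480, at 18.2, 12 and 9.22 CPM in SW480-B and at 18.8, 20.5 and 26.6 CPM in the gRNA line. The gRNA-line libraries lay above all others, with a log2 fold change of 1.60 ± 0.55 (SE) and an adjusted p of 0.11 against SW480. ZNF473, which takes part in the 3′ end processing of histone transcripts, had -0.33, and ZNF808, needed for pancreas development, -0.64 (adjusted p = 0.20). ZNF558, ZNF675 and ZNF175 had -0.46, -0.66 and -0.40 in the gRNA line against SW480, and none of them passed the test.

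The corepressor genes with which KRAB proteins work were taken as a list of 24 matched genes. Of these, 1 passed upward and 1 downward in the gRNA line against SW480, or 8.33%, near the 6.55% of all genes tested, and the median log2 fold change was -0.06. In SW480-B against SW480 none was called in edgeR (median -0.16), with 1 higher and 3 lower at an unadjusted p under 0.05 (8.07% and 7.76% of all genes) and 1 lower, DNMT3B, in DESeq2 (2.43% of all genes). Against SW480-B, 1 was called higher in the gRNA line (4.17% of the list, where 6.68% of all genes were called; median 0.06), and TRIM24 fell by less than 2-fold. TRIM28, the partner of the KRAB box, itself lies on 19q (chr19:59055431-59062089). It was at 772, 975 and 772 CPM in SW480, at 414, 601 and 624 CPM in SW480-B and at 444, 429 and 436 CPM in the gRNA line. Both derived lines lay below SW480 in every library, and the log2 fold change was -0.95 ± 0.18 (SE; adjusted p = 0.029 in edgeR) in the gRNA line, under 2-fold, and -0.59 (adjusted p = 0.34) in SW480-B. In the gRNA line it still passed the adjusted p without SW480 replicate 1 or SW480 replicate 3, but not without any 1 of the other 4 libraries, nor with arm offsets or with the near-alike replicates summed, and it was past 2-fold and called with GC and length offsets, with and without the replicate number as a block.

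SETDB1, the methyltransferase, was at 72.4, 45.1 and 30 CPM in SW480, at 30, 33.5 and 27.0 CPM in SW480-B and at 26.1, 29.3 and 31.9 CPM in the gRNA line, and the lines overlapped (log2 fold change -0.76, adjusted p = 0.17 in edgeR, in the gRNA line). CHD3, a remodeling ATPase of the NuRD complex, was at 16, 41.9 and 65.4 CPM in SW480, at 83.1, 56.9 and 66.4 CPM in SW480-B and at 188, 172 and 182 CPM in the gRNA line. It rose in the gRNA line against SW480 (log2 fold change 2.13 ± 0.46, SE; adjusted p = 0.040) and against SW480-B (1.39 ± 0.18; adjusted p = 0.0044). TRIM24, a relative of TRIM28, was at 107, 104 and 64.0 CPM in SW480, at 51.3, 59.0 and 51.1 CPM in SW480-B and at 26.8, 33.6 and 30.6 CPM in the gRNA line, so that the lines did not overlap. It fell in the gRNA line against SW480 by 1.60 ± 0.24 (SE, log2 scale; adjusted p = 0.016) and against SW480-B by 0.83 (adjusted p = 0.019). The calls of CHD3 and TRIM24 against SW480 held without SW480 replicate 1 or SW480 replicate 3 and were lost without any 1 of the other 4 libraries, whereas the call of CHD3 against SW480-B held in all 6 such fits. With the near-alike replicates summed, the call of CHD3 against SW480-B was kept and the other calls of CHD3 and TRIM24 were lost. The call of CHD3 was also lost against SW480 with no filter and against SW480-B in the fit of all 9 libraries.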

How the data were processed

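Poly(A) RNA of 9 libraries from 3 SW480-derived lines was sequenced and, per the labels, aligned to GRCh37. The authors deposited whole-number counts per gene, not normalized, and the program and strand setting used for counting are not given in the sources used here. The last 5 lines of each table, which name no gene, held 8.63% to 13.0% of fragments and were left out. Per the file headers, the deposited Picard metrics give other library measures, of which the intronic share was used. Members and gene lists were chosen with earlier results of these data known.

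Genes were matched to GRCh37 annotation (55665 of 63677 identifiers, and 2 annotated chromosome 19 members had no row). Each pair of lines was fitted alone with edgeR 4.0.16 (R 4.3.3, limma 3.58.1), using filterByExpr (least count 10, least total 15), TMM scaling, the robust quasi-likelihood test (two-sided) and Benjamini-Hochberg adjustment over all genes tested. The study's methods do not state the test. A gene was called at an adjusted p under 0.05 and a change above 2-fold. Levels are CPM of gene counts, and comparisons of level between genes are per kilobase of merged exons. The fits were tried on simulated data, and no result of that trial is given or used here. Named genes were, by rule, members with an adjusted p under 0.05, no overlap between lines and a mean of 1 CPM or more where higher (up to 8 per direction), members with a known role, the 5 highest per kilobase, and called corepressor genes with TRIM28 and SETDB1. ZNF556 was chosen by this rule, while members named for a call in DESeq2 alone or for crossing 1 CPM between lines were chosen after their values were seen. Fingers and KRAB boxes were searched in translated coding sequences on GRCh37, since no RefSeq protein table was used here. ZNF274 was left out of that search because its translation held a stop. The KRAB A-box pattern was [DN][VL].[VILM].F[ST]..E[WL], with a dot for any residue, and had to lie before the middle of the protein. Alternatives were RLE scaling, no filter, a filter at 1 CPM in 3 libraries, a fit of all 9 libraries, the replicate number as a block, GC and length offsets (loess, span 0.5) with and without that block, arm offsets, summing of near-alike replicates, DESeq2 1.42.0 and leaving out each library. In SW480-B against SW480 same-numbered libraries deviated together (correlations 0.305, 0.404 and 0.397 over genes), and the block changed no call of a member. Intervals and the limit for a count of 0 (3 counts, or 0.1 to 0.116 CPM) cover counting error only. Python 3.11.15, pandas 2.3.3 and SciPy 1.17.1 were used.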

Additional observations from a re-analysis of the deposited data

Results flagged for a closer look

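ZNF556 and ZNF841 were picked out because their levels differed between the 2 lines that both express BASP1, in the direct comparison of SW480-gRNA-B-all with SW480-B. That comparison was fitted on the libraries of these 2 lines alone, with no SW480 library, and gives the difference in level between them. Since the genes were chosen by this comparison, its values describe them and are no separate test. ZNF556 had a log2 fold change of 3.97 and ZNF841 one of -1.42 in edgeR. For ZNF556 the value ran from 3.38 to 9.26 over the alternatives, and SW480-B held counts in replicate 1 only. ZNF556 passed the low-count filter through SW480-gRNA-B-all alone, where it is high, so its call is not independent of the filter. Among the 6 fits with a library left out, the call of ZNF556 held in 1 and that of ZNF841 in 2. The call of ZNF556 was lost in DESeq2, with no filter, in the fit of all 9 libraries and with arm offsets. Both calls were lost when the near-alike libraries of SW480-gRNA-B-all were summed.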

How the results depend on the processing

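The medians over members kept their direction in all alternatives for both comparisons of SW480-gRNA-B-all (-0.64 to -0.27 against SW480 and -0.48 to -0.20 against SW480-B), and in SW480-B against SW480 the median was 0.02 without SW480 replicate 1 and 0.01 with arm offsets. In SW480-gRNA-B-all against SW480, members called lower (2) became 7 with no filter, 8 in the fit of all 9 libraries, 5 with the replicate block, 1 with GC and length offsets, 5 with the replicate block and those offsets, 0 with near-alike replicates summed, 14 in DESeq2, and 0 to 23 with a library left out. Members called higher (1) became 2 with no filter, 0 at 1 CPM in 3 libraries, 2 with the replicate block and offsets, 0 summed, 4 in DESeq2, and 0 to 4 with a library left out. With arm offsets 2 were lower, both on 19p. In SW480-B against SW480, DESeq2 called 3 higher, and the counts were 0 under every other alternative. In SW480-gRNA-B-all against SW480-B, members called lower (1) became 3 with no filter, 3 with the replicate block, 4 with the replicate block and offsets, 0 summed, 3 in DESeq2, 5 at any fold, and 0 to 6 with a library left out. Members called higher (1) became 0 in the fit of all 9 libraries, 2 with the replicate block, 2 with the replicate block and offsets, 0 with arm offsets, 0 summed, and 0 to 2 with a library left out. The cause of these shifts was not tested, except that summing leaves 1 library fewer. For same-numbered libraries of SW480-gRNA-B-all the correlations of deviations were 0.312, -0.013 and 0.293 with SW480. With SW480-B they were 0.267, -0.099 and 0.285. Because replicates 2 and 3 of SW480-gRNA-B-all are near-alike, these values cannot decide whether the replicate numbers pair the libraries. Of the 3 genes called against SW480, the fit of all 9 libraries kept 3, DESeq2 kept 3 and the replicate block kept 1. Counts near 0 limit what can be said of low members, such as ZNF582 with 2 counts in SW480.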
